A study of Homo sapiens with 12 samples.

Results

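The D-type cyclins, their kinases and the retinoblastoma genes control entry into the cell cycle. The 10 genes described here were chosen by name, for their place in this pathway, from the 26364 genes of the deposited count table: the cyclins CCND1, CCND2 and CCND3, the kinases CDK4 and CDK6, the pocket protein genes RB1, RBL1 and RBL2, and the transcription factors E2F1 and E2F8. The choice of these genes, and of the gene lists below, was made with earlier results of these data known. All 10 were among the 15087 genes with enough counts to be tested. The lymphoma lines JeKo-1 and Granta-519 were cultured with 4 µM chidamide (written Chidmide in the sample labels) or with vehicle for 12 h, and their polyadenylated RNA was sequenced. Chidamide is a benzamide inhibitor of histone deacetylases. Each of the 4 groups held 3 libraries, 12 in all, and neither line was given a genetic change by the labels. Each line stands for 1 tumour, and the sources used here do not name the vehicle.

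As background, D-type cyclins rise when growth signals reach a cell, bind CDK4 or CDK6, and direct these kinases to the retinoblastoma protein and its relatives. Unphosphorylated pocket proteins hold E2F factors and repress genes needed for DNA replication, and phosphorylation releases them. INK4 inhibitors block CDK4 and CDK6, and CIP/KIP proteins bind cyclin and kinase together. In mantle cell lymphoma, the B-cell cancer from which both lines are described, a translocation places CCND1 beside an immunoglobulin enhancer, so that a cyclin that B cells scarcely use becomes abundant.

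After 12 h of chidamide, transcripts of CDK4, E2F1, E2F8 and CCND3 fell in both lines, CDK4 by log2 changes of -0.96 ± 0.04 and -0.90 ± 0.04 (SE, n = 3 libraries a group). RB1 transcripts rose in both. CDK6 fell in libraries labelled JeKo-1 and rose 2.13-fold in Granta-519. CCND1, by far the leading D-type cyclin of Granta-519, fell there and rose under the JeKo-1 label from almost no counts. RBL2 fell in Granta-519, and the RBL1 log2 change was -0.14 under the JeKo-1 label and -0.04 in Granta-519.

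Promoter sequences were matched by symbol in the RefSeq promoter table (build GRCh38.p14), which had 11 windows for 7 of the 10 genes and none for CCND1, CCND2 and E2F8. The RB1 window lies at a start far inside the gene. Searched were the 250 bases before each start, on both strands, for an E2F motif (TTTCCCGC, TTTCGCGC, TTTGCCGC or TTTGGCGC), an E-box (CACGTG), a CHR element (TTTGAA or TTCGAA) and a GC box (GGGCGG). No motif spelling lies inside another, although GC boxes can overlap other motifs. An E2F spelling was present in 2.79% of the 35116 windows of this length in the table, an E-box in 6.34%, a CHR element in 14.3% and a GC box in 42.6%. Among the 11 windows, the E2F spellings were found in those of RBL1 and E2F1, and the E-box in that of CDK4. These 3 windows are printed because CDK4 and E2F1 fell in both lines while RBL1, which also holds E2F spellings, had log2 changes of -0.14 and -0.04. Capitals mark E-boxes in CDK4 (chr12:57752311-57752560, minus strand) and E2F spellings in RBL1 (chr20:37095998-37096247, minus strand) and E2F1 (chr20:33686386-33686635, minus strand).
CDK4: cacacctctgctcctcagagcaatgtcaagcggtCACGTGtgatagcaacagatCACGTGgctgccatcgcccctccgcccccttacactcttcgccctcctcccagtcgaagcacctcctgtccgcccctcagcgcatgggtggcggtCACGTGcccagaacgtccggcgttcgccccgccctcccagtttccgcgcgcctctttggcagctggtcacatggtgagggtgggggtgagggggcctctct
RBL1: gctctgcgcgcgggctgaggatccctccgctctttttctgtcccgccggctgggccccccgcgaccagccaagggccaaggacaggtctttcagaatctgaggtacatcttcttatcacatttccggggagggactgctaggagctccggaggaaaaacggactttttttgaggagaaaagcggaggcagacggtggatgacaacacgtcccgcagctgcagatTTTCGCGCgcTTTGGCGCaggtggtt
E2F1: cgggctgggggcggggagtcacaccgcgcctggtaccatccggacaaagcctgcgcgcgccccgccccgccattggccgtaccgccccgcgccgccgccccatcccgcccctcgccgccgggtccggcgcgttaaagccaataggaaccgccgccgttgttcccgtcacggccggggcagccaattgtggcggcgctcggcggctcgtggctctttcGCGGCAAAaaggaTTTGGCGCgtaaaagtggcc
The 3 E-boxes of CDK4 began 216, 196 and 101 bases before the start. In RBL1 the E2F spellings began 26 and 16 bases before the start, and in E2F1 they began 33 and 20 bases before it, the first of these on the opposite strand. A match of letters is a description and no measurement of binding.

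Library totals ran from 12873642 to 16592694 counts, and no libraries were alike within sampling noise. The highest replicate disagreement involved vehicle replicate 2 under the JeKo-1 label. All 7 B-cell markers had counts in every group, with a summed level of 2823 to 4204 CPM (counts scaled to library size with edgeR's TMM factors). SOX11, whose product marks most mantle cell lymphomas, had 0 counts in all libraries labelled JeKo-1, against 157 ± 7.52 CPM (SD, n = 3) in Granta-519 vehicle. CCND1 was also near 0 under the JeKo-1 label. JeKo-1 is described as expressing both genes. The libraries are therefore named by their label, and every direction drawn from them carries this limit. The 5 myeloid markers summed to 0.414 to 0.889 CPM in vehicle and 12.4 to 13.3 CPM in chidamide under the JeKo-1 label, with 3 and 5 of them above 0 counts. In Granta-519, with 4 of 5 above 0 in both groups, the sums were 1.07 to 1.65 CPM and 19.5 to 21.3 CPM. S100A8 was at 0 counts in all groups but chidamide under the JeKo-1 label, where it had 1. CSF1R, named after its values were seen, went from 7 to 411 counts under the JeKo-1 label and from 45 to 859 in Granta-519, where it made up nearly the whole sum at 19.7 CPM. LYZ went from 14 to 163 counts under the JeKo-1 label and from 2 to 4 in Granta-519. S100A9 went from 0 to 14 and from 1 to 8, and CD14 from 5 to 6 and from 18 to 20. The 7 T and natural killer cell markers summed to 2.73 to 4.27 CPM in vehicle and 5.41 to 8.09 CPM in chidamide under the JeKo-1 label, mostly of NKG7, with CD2 and CD7 at 0. In Granta-519 they summed to 0.456 to 0.570 CPM and 1.17 to 1.91 CPM, with CD3D and CD3G at 0. The 6 epithelial and stromal markers, mostly COL1A1, summed to 24.8 to 28.2 CPM in vehicle and 30.01 to 34.2 CPM in chidamide under the JeKo-1 label, and to 58.0 to 63.8 CPM and 65.6 to 70.6 CPM in Granta-519. The 4 erythroid markers stayed at or below 1.34 CPM. The part of these markers in the changes below was not tested. In bulk RNA, fewer cells of a kind and less RNA per cell cannot be told apart.

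**Figure D1:**
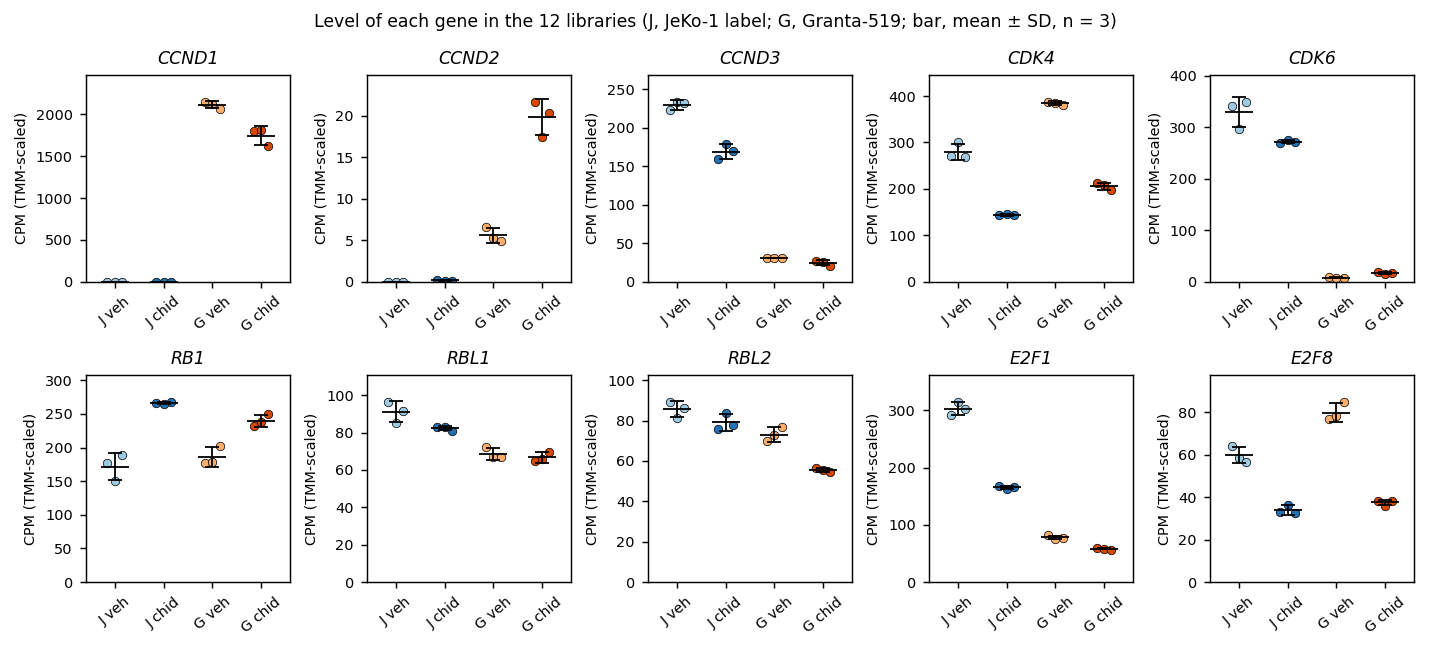
CPM of the 10 genes in each of the 12 libraries, 1 panel a gene with its own linear axis from 0. Points are libraries and bars are group means with SD (n = 3), with J for the JeKo-1 label, G for Granta-519, veh for vehicle and chid for chidamide. CDK4 and E2F1 are lower in every chidamide library than in every vehicle library of the same line, and RB1 is higher.

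Across the pathway, 9 of the 10 genes were called under the JeKo-1 label at an adjusted p below 0.05 by edgeR's quasi-likelihood test, 3 higher and 6 lower in chidamide. Over all 15087 tested genes 66.4% were called there, 35.3% higher and 31.1% lower, so a call alone sets a gene apart little. In Granta-519, 9 of the 10 were called, again 3 higher and 6 lower, against 70.9% of all tested genes, 39.6% higher and 31.3% lower. Of the members, 4 fell in both lines (CCND3, CDK4, E2F1 and E2F8), against 22.4% of tested genes. Another 2 rose in both (CCND2 and RB1), against 24.1%, and 2 were called in opposite directions (CCND1 and CDK6), against 5.16%. The CCND2 call under the JeKo-1 label rests on 8 counts against 0, in a gene that passed the count filter only through Granta-519. The median log2 change of the 10 was -0.21 under the JeKo-1 label and -0.30 in Granta-519, and over all tested genes it was 0.04 and 0.08. Nothing in the labels says that replicates were separate cultures, and the p-values then reflect library-to-library spread alone, possibly of technical origin.

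**Figure D2:**
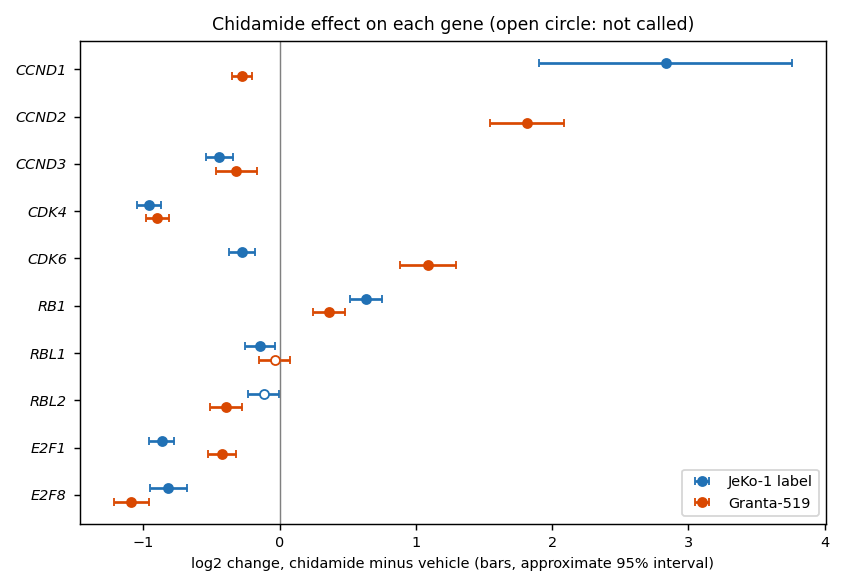
Log2 change of each gene, chidamide minus vehicle, in the libraries labelled JeKo-1 (blue) and in Granta-519 (orange), with approximate 95% intervals from edgeR's fit; open circles were not called. CCND2 under the JeKo-1 label is not drawn because its vehicle libraries had 0 counts. CDK6 lies on opposite sides of 0, and CDK4 at nearly the same place, in the 2 lines.

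CCND1 encodes cyclin D1, the D-type cyclin that mantle cell lymphoma overproduces. Granta-519 vehicle libraries held 2153, 2122 and 2068 CPM, and chidamide libraries held 1800, 1819 and 1622 CPM. Every treated library lay below every vehicle library. The log2 change was -0.28 ± 0.04 (SE; edgeR adjusted p = 3.48e-09), and it was -0.18 with upper-quartile scaling. Vehicle libraries labelled JeKo-1 held 2, 2 and 1 counts of CCND1, and chidamide libraries held 18, 11 and 15. All 3 treated libraries lay above all 3 vehicle libraries, yet, at equal TMM-scaled library size, their level stayed 1853-fold below that of treated Granta-519 (95% interval 1380 to 2550, counting error only). At equal TMM-scaled library size, the ratio of chidamide to vehicle was 7.55 under the JeKo-1 label (95% interval 3.00 to 24.4, exact and for counting error only), and edgeR gave a log2 change of 2.83 ± 0.46 (adjusted p = 3.65e-07). On the length-scaled score, where a pseudocount damps low genes, the log2 change was 1.82 with a pseudocount of 0.01 and 0.45 with 0.1.

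CCND2 encodes cyclin D2, which is used by many normal and malignant B cells. Its Granta-519 vehicle libraries held 6.65, 5.32 and 4.93 CPM, and chidamide raised them to 21.7, 17.4 and 20.3 CPM. The groups did not overlap, and CCND2 rose 3.52-fold (log2 change 1.82 ± 0.14; edgeR adjusted p = 2.99e-17). Under the JeKo-1 label the vehicle libraries had 0 counts and the chidamide libraries 4, 2 and 2. With the vehicle group set to a floor of 3 counts, CCND2 was 2.29-fold higher in chidamide, and the exact 95% lower limit for counting error was 1.46. CCND2 passed the count filter only through its Granta-519 libraries, as it held just 8 counts under the JeKo-1 label. For the change under that label, the edgeR adjusted p was 0.00785. This call was lost on the length-scaled score with a pseudocount of 0.1 (limma adjusted p = 0.522). The difference between the lines was 2.59 ± 1.47 and did not pass (edgeR adjusted p = 0.165). On the length-scaled score it turned sign and was called, at -1.15 with a pseudocount of 0.01 (limma adjusted p = 0.00278) and -1.30 with 0.1 (adjusted p = 5.65e-06).

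CCND3 encodes cyclin D3, the D-type cyclin of germinal-centre B cells. Vehicle libraries labelled JeKo-1 held 222, 234 and 232 CPM, and chidamide libraries 159, 178 and 169 CPM. In Granta-519 the vehicle libraries held 31.0, 30.4 and 30.7 CPM, and the chidamide libraries 27.4, 25.3 and 21.2 CPM. In both lines all treated libraries lay below all vehicle libraries. CCND3 fell with a log2 change of -0.44 ± 0.05 under the JeKo-1 label (edgeR adjusted p = 4.40e-11) and -0.32 ± 0.07 in Granta-519 (adjusted p = 0.000151). Without chidamide replicate 3 the Granta-519 value was -0.20 (adjusted p = 0.0159). The difference between the lines, -0.12 with an approximate 95% interval from -0.30 to 0.06, did not pass the test (edgeR adjusted p = 0.298). It passed without Granta-519 chidamide replicate 3 (-0.23, adjusted p = 0.0375) and turned sign, at 0.01, with library-size scaling.

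Levels of different genes can be compared only per length, which the deposited length-scaled score allows within a library. On this score, CCND3 made up 99.955% of the summed D-type cyclins in vehicle libraries labelled JeKo-1, whereas CCND1 made up 98.1 ± 0.029% (SD, n = 3) in Granta-519 vehicle. In chidamide, CCND3 still led under the JeKo-1 label (99.5 ± 0.11%) and CCND1 in Granta-519 (97.6 ± 0.16%). The CCND1 share under the JeKo-1 label was 0.0446 ± 0.0130% in vehicle and 0.460 ± 0.094% in chidamide, and the CCND2 share in Granta-519 was 0.172 ± 0.024% and 0.732 ± 0.10%. The summed D-type cyclin score was 11.9 ± 0.31 in vehicle and 9.70 ± 0.54 in chidamide under the JeKo-1 label, and 102.8 ± 2.18 and 84.8 ± 5.07 in Granta-519. Untreated Granta-519 thus held the larger summed level, and in neither line did the ranges of vehicle and chidamide meet within 1 SD.

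**Figure D3:**
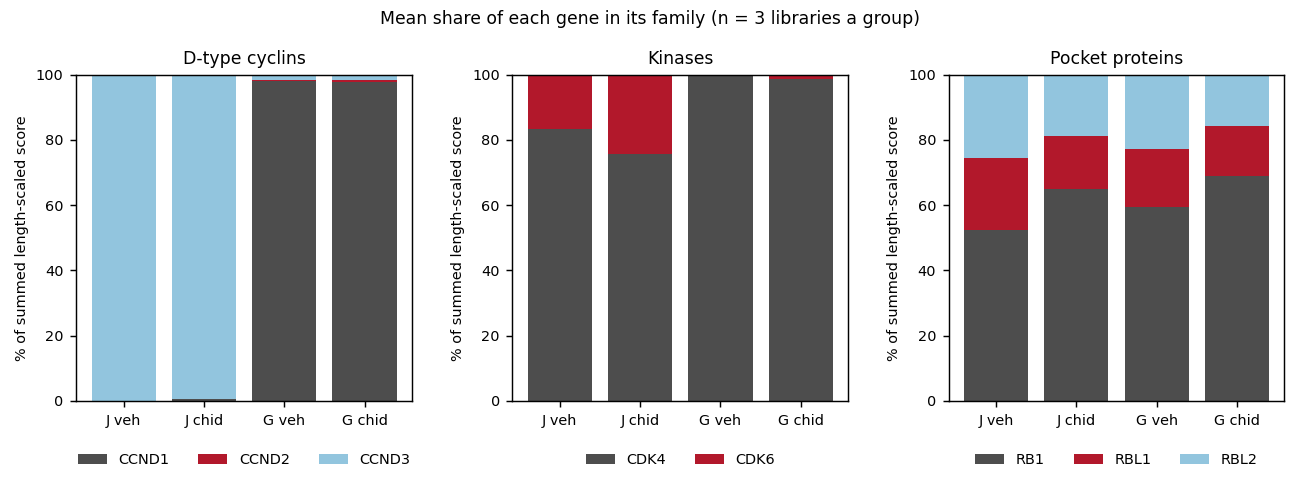
Mean share of each gene in the summed length-scaled score of its family, in percent (n = 3 libraries a group), for the D-type cyclins, the kinases and the pocket proteins; J is the JeKo-1 label, G is Granta-519, veh is vehicle and chid is chidamide. CCND3 fills the D-type cyclin bar under the JeKo-1 label and CCND1 that of Granta-519, and the RB1 share is larger in chidamide in both lines.

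CDK4 encodes the kinase partner shared by all D-type cyclins. Vehicle libraries labelled JeKo-1 held 271, 300 and 269 CPM, and chidamide libraries 143, 146 and 144 CPM. Granta-519 vehicle libraries held 388, 385 and 380 CPM, and chidamide libraries 212, 208 and 197 CPM. No treated library reached any vehicle library of its line. The log2 change was -0.96 ± 0.04 under the JeKo-1 label (edgeR adjusted p = 2.66e-26) and -0.90 ± 0.04 in Granta-519 (adjusted p = 7.41e-26). The difference of -0.06 did not pass the test (edgeR adjusted p = 0.517), with an interval from -0.18 to 0.07, and it was 0.08 with library-size scaling.

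CDK6 encodes the second kinase of this kind, which blood cells use widely. Under the JeKo-1 label, vehicle libraries held 342, 297 and 350 CPM and chidamide libraries 270, 275 and 272 CPM. Granta-519 held 8.73, 7.59 and 7.66 CPM in vehicle and 19.2, 15.7 and 16.2 CPM in chidamide. The groups did not overlap in either line, and treated Granta-519 stayed far below every library labelled JeKo-1. CDK6 rose in Granta-519 (log2 change 1.09 ± 0.10; edgeR adjusted p = 7.78e-14) and fell under the JeKo-1 label (-0.28 ± 0.05; adjusted p = 1.88e-06). The fall was -0.14 with library-size scaling and -0.13 with upper-quartile scaling, and it was not called on the length-scaled score (limma adjusted p = 0.213 and 0.150 with the 2 pseudocounts). The change differed between the lines by -1.37 ± 0.11 (edgeR adjusted p = 8.34e-15).

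On the length-scaled score, CDK4 was the larger of the 2 kinases in every group. The CDK6 share was 16.7 ± 2.04% in vehicle and 24.3 ± 0.090% in chidamide under the JeKo-1 label, and 0.353 ± 0.025% and 1.39 ± 0.12% in Granta-519. By CPM, which is not corrected for the long CDK6 transcript, CDK6 would take 54.0% of the pair in vehicle libraries labelled JeKo-1. The summed kinase score was 31.1 ± 1.02 in vehicle and 19.4 ± 0.21 in chidamide under the JeKo-1 label, and 39.4 ± 0.47 and 21.2 ± 0.76 in Granta-519.

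RB1 encodes the retinoblastoma protein, the main substrate of these kinases. Vehicle libraries labelled JeKo-1 held 177, 150 and 188 CPM, and chidamide libraries 266, 265 and 268 CPM. Granta-519 vehicle libraries held 176, 179 and 203 CPM, and chidamide libraries 232, 238 and 249 CPM. All treated libraries lay above all vehicle libraries of their line, and the vehicle libraries spread more widely. RB1 rose by a log2 change of 0.63 ± 0.06 under the JeKo-1 label (edgeR adjusted p = 3.24e-11) and 0.36 ± 0.06 in Granta-519 (adjusted p = 1.55e-06). The change was larger under the JeKo-1 label by 0.27 ± 0.08 (edgeR adjusted p = 0.00846). This difference was 0.18 (adjusted p = 0.0170) without JeKo-1 label vehicle replicate 2, which held the lowest RB1 level of its group, and 0.41 with library-size scaling.

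RBL1 encodes the pocket protein p107, itself an E2F target. Under the JeKo-1 label it stood at 96.4, 85.3 and 91.5 CPM in vehicle and 83.1, 83.1 and 81.0 CPM in chidamide, ranges that did not overlap. In Granta-519 it stood at 72.1, 66.7 and 66.7 CPM in vehicle and 64.5, 65.8 and 69.8 CPM in chidamide, ranges that overlapped. The log2 change under the JeKo-1 label was -0.14 ± 0.06 (edgeR adjusted p = 0.0193). That call was lost in 12 of 21 alternatives (adjusted p from 0.00451 to 1 over all of them), and the sign turned with upper-quartile scaling. In Granta-519 the log2 change was -0.04 ± 0.06 (edgeR adjusted p = 0.56), with an interval from -0.15 to 0.08 and again a turned sign under upper-quartile scaling. With no filter on low counts it was -0.15 and called (edgeR adjusted p = 0.0291). The difference between the lines was -0.11 ± 0.08 (edgeR adjusted p = 0.316; interval -0.27 to 0.05).

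RBL2 encodes p130, the pocket protein of resting cells. Granta-519 held 69.7, 72.7 and 77.0 CPM in vehicle and 56.3, 55.5 and 54.7 CPM in chidamide. Libraries labelled JeKo-1 held 89.3, 81.5 and 86.3 CPM in vehicle and 75.7, 83.7 and 77.9 CPM in chidamide. The groups were separate in Granta-519 and overlapped under the JeKo-1 label. RBL2 fell in Granta-519 (log2 change -0.40 ± 0.06; edgeR adjusted p = 3.45e-08), while the value under the JeKo-1 label was -0.12 ± 0.06 (adjusted p = 0.0608) and did not pass. That value was called without JeKo-1 label chidamide replicate 2 (-0.14, adjusted p = 0.0462), JeKo-1 label vehicle replicate 2 (-0.14, adjusted p = 0.0285) or Granta-519 vehicle replicate 3 (-0.12, adjusted p = 0.0490), by edgeR, and turned to 0.01 with library-size scaling. The change differed between the lines by 0.28 ± 0.08 (edgeR adjusted p = 0.00451).

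Within the summed pocket protein score, the RB1 share was 52.2 ± 2.1% in vehicle and 65.1 ± 0.77% in chidamide under the JeKo-1 label. In Granta-519 it was 59.6 ± 1.49% in vehicle and 69.0 ± 0.52% in chidamide. The summed score was 12.7 ± 1.1 and 17.4 ± 0.15 under the JeKo-1 label, and 13.4 ± 0.71 and 14.8 ± 0.47 in Granta-519. RB1 was the leading pocket protein transcript in all 4 groups.

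E2F1 encodes the activating factor released from the retinoblastoma protein at the start of S phase. Vehicle libraries labelled JeKo-1 held 292, 315 and 302 CPM, and chidamide libraries 168, 163 and 167 CPM. Granta-519 vehicle libraries held 81.6, 75.8 and 77.2 CPM, and chidamide libraries 59.2, 58.7 and 56.9 CPM. Vehicle and chidamide did not overlap in either line. E2F1 fell by a log2 change of -0.87 ± 0.04 under the JeKo-1 label (edgeR adjusted p = 2.66e-24) and -0.42 ± 0.05 in Granta-519 (adjusted p = 2.93e-10). The fall was deeper under the JeKo-1 label, with a difference of -0.44 ± 0.07 (edgeR adjusted p = 4.08e-07) that was -0.28 with no filter on low counts.

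E2F8 encodes an atypical E2F that represses other E2F targets late in S phase. Its libraries under the JeKo-1 label held 64.0, 58.6 and 56.6 CPM in vehicle and 33.1, 36.6 and 32.4 CPM in chidamide. In Granta-519 they held 76.6, 78.2 and 84.9 CPM in vehicle and 38.1, 36.1 and 38.4 CPM in chidamide. The vehicle groups of the lines were separate, and the treated groups overlapped. The log2 change was -0.82 ± 0.07 under the JeKo-1 label (edgeR adjusted p = 8.73e-16) and -1.09 ± 0.07 in Granta-519 (adjusted p = 2.23e-21). The difference of 0.27 (edgeR adjusted p = 0.0180) was lost without JeKo-1 label chidamide replicate 2 (0.22, adjusted p = 0.0886) and JeKo-1 label vehicle replicate 3 (0.24, adjusted p = 0.0533). It was also lost without Granta-519 chidamide replicate 2 (0.24, adjusted p = 0.0616) and Granta-519 vehicle replicate 3 (0.23, adjusted p = 0.0627).

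In all, the chidamide effect differed between the lines for 6 of the 10 genes (edgeR's quasi-likelihood test), against 39.5% of all tested genes. It was more positive under the JeKo-1 label for 4 (CCND1, RB1, RBL2 and E2F8), against 20.0%, and more negative for 2 (CDK6 and E2F1), against 19.5%. With library-size scaling, 70.0% of the called differences over all genes were more positive under the JeKo-1 label, against 50.6% with TMM, and the median of all genes moved by 0.14 on the log2 scale. TMM factors were 0.928 to 0.938 in the vehicle libraries labelled JeKo-1 and 1.02 to 1.03 in the other libraries. For the change under the JeKo-1 label itself, library-size scaling put 63.7% of calls on the higher side, against 53.1%.

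The lines also differed before treatment. In vehicle, 9 of the 10 genes differed between the labels (edgeR's quasi-likelihood test), against 79.8% of tested genes. Under the JeKo-1 label 5 were higher (CCND3, CDK6, RBL1, RBL2 and E2F1), against 35.5%, and 4 were lower (CCND1, CCND2, CDK4 and E2F8), against 44.3%. The RBL2 call (log2 difference 0.23) was lost in 4 of 21 alternatives, and was 0.09 with library-size scaling (edgeR adjusted p = 0.128). CDK6 was 41.2-fold, CCND3 7.47-fold and E2F1 3.87-fold higher under the JeKo-1 label. CCND2 in Granta-519 was 75.2-fold higher with the JeKo-1 label group set to the floor of 3 counts, with an exact 95% lower limit of 60.7 for counting error. At equal TMM-scaled library size, the ratio of CCND1 in Granta-519 to that under the JeKo-1 label was 16930 (95% interval 7256 to 52150, counting error only). RB1, by contrast, had overlapping ranges in the 2 vehicle groups and a log2 difference of -0.12 ± 0.06 (edgeR adjusted p = 0.0694). It was called in 10 of 21 alternatives (adjusted p from 6.84e-06 to 0.487).

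Ordered on the length-scaled score, vehicle libraries labelled JeKo-1 led with CDK4 (25.9 ± 1.49), E2F1 (20.8 ± 0.73) and CCND3 (11.9 ± 0.31). RB1 at 6.67 ± 0.81 and CDK6 at 5.19 ± 0.48 followed, then RBL2, RBL1 and E2F8 at 3.25 ± 0.16, 2.82 ± 0.18 and 2.70 ± 0.17. RBL1 and E2F8, neighbours in that order, did not differ beyond their SD. Granta-519 vehicle led with CCND1 (100.9 ± 2.15), CDK4 (39.3 ± 0.46) and RB1 (7.98 ± 0.63), and ended with CCND2 (0.177) and CDK6 (0.139). After chidamide RB1 overtook CCND3 under the JeKo-1 label, at 11.4 ± 0.10 against 9.65 ± 0.55.

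Genes whose log2 CPM was most alike over the 12 libraries were named by Pearson's r, as a description; the points share 2 lines and 1 treatment. For CCND1 these were HIPK2 (r = 0.9997), CREB3L2 (0.999) and TMPRSS3 (0.9989), and for CCND2 they were CEP170B (0.9986), GSE1 (0.9977) and NRARP (0.9976). For CDK4 they were DPH2 (0.9965), TIMM10 (0.9955) and DDX39A (0.9955), and for RB1 they were HMMR (0.9781), WSB1 (0.9766) and TAB2 (0.9763).

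Inhibitors of the cyclin D kinases did not move as a block. Of the INK4 and CIP/KIP genes, 6 had counts under the JeKo-1 label, where 4 rose and 1 fell (edgeR's quasi-likelihood test; 35.3% and 31.1% of all tested genes did). In Granta-519, 5 had counts, of which 2 rose and 2 fell (39.6% and 31.3% of all tested genes). CDKN1C had 0 counts under the JeKo-1 label, and CDKN2A and CDKN2B had 0 in Granta-519. CDKN1A, which encodes p21, rose in both lines, with log2 changes of 1.77 and 1.05. CDKN2B, encoding the CDK4 and CDK6 inhibitor p15, rose from 1.58 ± 0.22 to 7.32 ± 0.32 CPM under the JeKo-1 label. CDKN2C, encoding p18, fell in Granta-519 from 78.0 ± 1.04 to 38.7 ± 1.33 CPM, and under the JeKo-1 label with a log2 change of -0.16. CDKN2D, encoding p19, rose in both lines, with log2 changes of 1.17 under the JeKo-1 label and 1.12 in Granta-519.

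Downstream of the pocket proteins, E2F target genes mostly fell with E2F1. Of 30 listed targets, 24 fell and 4 rose under the JeKo-1 label, and 23 fell and 4 rose in Granta-519 (edgeR's quasi-likelihood test). Over all tested genes 31.1% and 31.3% fell in the 2 lines, and the list was chosen with earlier results of these data known. The same 23 targets fell in both lines, as did 22.4% of all tested genes. Of the targets, 4 also stand in the list of cyclins E and A below, 1 (MYBL2) in that of the DREAM and MuvB complexes and 1 (E2F2) among the other E2F genes. Their list median was -0.58 under the JeKo-1 label and -0.40 in Granta-519, against 0.04 and 0.08 over all tested genes. MCM7, a subunit of the replicative helicase, fell by 1.1 on the log2 scale under the JeKo-1 label and by 0.78 in Granta-519. CDC25A, the phosphatase that activates CDK2, fell by 1.07 and 0.94. EZH2, the histone methyltransferase of Polycomb, rose with log2 changes of 0.63 and 0.41, and the primase subunit gene PRIM1 with 0.59 and 0.41. Before treatment, 25 of the 30 were higher under the JeKo-1 label than in Granta-519 and 4 were lower, against 35.5% and 44.3% of all tested genes.

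**Figure D4:**
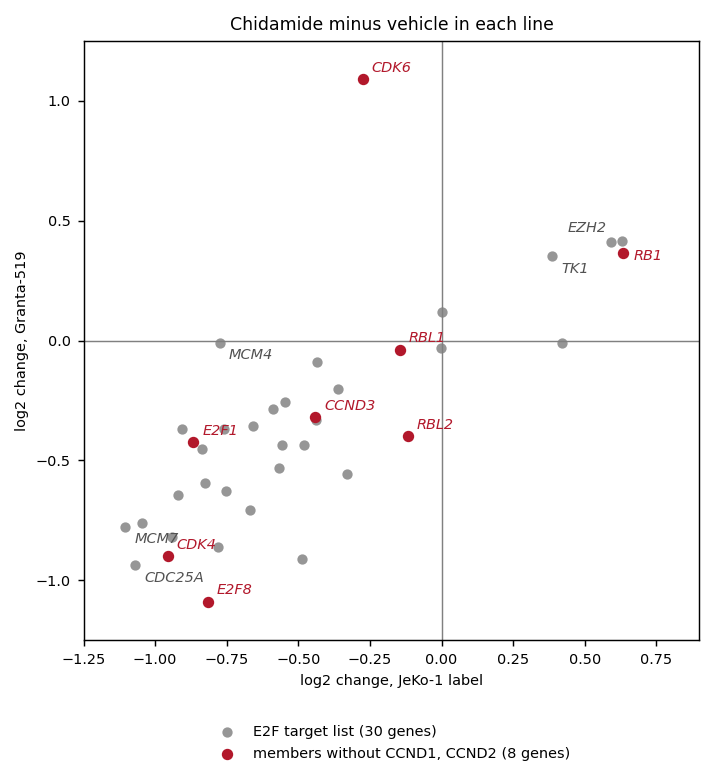
Log2 change, chidamide minus vehicle, under the JeKo-1 label (x axis) and in Granta-519 (y axis) for 30 listed E2F target genes (grey) and 8 of the 10 pathway genes (red; CCND1 and CCND2 lie outside or lack vehicle counts). Most targets lie in the lower left with CDK4, E2F1 and E2F8. EZH2, PRIM1 and TK1, called higher in both lines, lie in the upper right with RB1, and CDK6 stands alone at the upper left.

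Other E2F and DP genes split. Of 8, under the JeKo-1 label 3 rose and 4 fell, and in Granta-519 2 rose and 4 fell, against the shares of all tested genes given above. TFDP2, a dimer partner of E2F factors, rose under the JeKo-1 label (log2 change 0.15) and fell in Granta-519 (-0.73), a difference of 0.88 ± 0.08 (edgeR adjusted p = 3.88e-13). E2F2, an activating relative of E2F1, fell in both lines (-0.76 and -0.37). E2F4, a factor that binds p107 and p130, fell in both lines (log2 change -0.99 and -0.68). E2F7, the atypical partner of E2F8, rose under the JeKo-1 label (0.49), and its value in Granta-519 was -0.09 (edgeR adjusted p = 0.251). The DREAM complex joins p130 and E2F4 on silent promoters. Of 6 listed genes of the DREAM and MuvB complexes, MYBL2 among them, 5 fell and none rose under the JeKo-1 label. In Granta-519, 6 fell. Over all tested genes, 31.1% fell under the JeKo-1 label and 31.3% in Granta-519. The MuvB subunit genes LIN52 (log2 change -0.51 under the JeKo-1 label and -0.91 in Granta-519) and LIN37 (-0.75 and -0.67) fell in both lines.

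Among 6 genes of cyclins E and A, CDK2 and CDC25A, 4 fell and 1 rose in each line, and 3 of those that fell (CCNE1, CCNA2 and CDC25A) were already counted among the E2F targets. Over all tested genes, 31.1% and 31.3% fell. CCNA2, the S-phase cyclin, fell with log2 changes of -0.94 under the JeKo-1 label and -0.82 in Granta-519. CCNA1, its germline relative, rose in Granta-519 from 7 to 113 counts over 3 libraries. It was the gene counted as rising there, and it passed the count filter only through those chidamide libraries, where it was high. Of 3 genes of the CDK-activating kinase, 2 rose under the JeKo-1 label, and 1 rose and 1 fell in Granta-519, a share near the 66.4% and 70.9% called over all tested genes. MNAT1, its assembly factor, rose in both lines (0.64 and 0.52), whereas the kinase gene CDK7 fell in Granta-519 (-0.69). Of 6 genes that act in turnover of D-type cyclins or of CDK inhibitors, 2 rose and 3 fell under the JeKo-1 label and 3 fell in Granta-519. Of all tested genes, 35.3% rose and 31.1% fell under the JeKo-1 label, and 31.3% fell in Granta-519. FBXO31, which encodes a ubiquitin ligase subunit for cyclin D1, fell in both (-0.92 and -0.38). Those that rose under the JeKo-1 label were GSK3B (mean 68.9 CPM in vehicle and 83.6 in chidamide) and FBXO4 (15.6 and 18.9 CPM).

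Genes beside the members on the chromosome did not follow them uniformly. RB1 has LINC00441 next to its start, read from the other strand, and LPAR6 within one of its introns; the counting was not stated to use strand, so reads could be shared. LINC00441 rose from 7 to 196 counts under the JeKo-1 label (log2 change 4.51 ± 0.41). In Granta-519 it rose from 17 to 43 counts (1.40 ± 0.44). The difference between the lines in this change was 3.11. LINC00441 passed the count filter only through chidamide libraries, where it was high, so no p-value is given for it. LPAR6 rose from 15 to 42 counts under the JeKo-1 label and from 393 to 481 in Granta-519, each a group total. TSPAN31, adjacent to CDK4 on the other strand, so that reads could be shared here too, rose from 5.73 ± 0.80 to 10.5 ± 1.37 CPM under the JeKo-1 label while CDK4 fell, and in Granta-519 its log2 change was 0.06 (edgeR adjusted p = 0.66). BYSL, adjacent to CCND3, fell in both lines (-0.41 and -0.43).

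Around CCND1 on the long arm of chromosome 11, 6 of 10 listed neighbours had enough counts to test. Under the JeKo-1 label 2 rose and 4 fell, against 35.3% and 31.1% of all tested genes. In Granta-519 2 rose and 2 fell, near the 39.6% and 31.3% of all tested genes. MYEOV, a neighbour overexpressed with CCND1 in some myelomas, rose from 48 to 175 counts under the JeKo-1 label (log2 change 1.64 ± 0.27) and from 29 to 65 in Granta-519 (1.24 ± 0.35). CTTN, the cortactin gene, rose in both lines (1.38 and 0.70). ORAOV1 went from 26.3 ± 2.58 to 18.4 ± 1.46 CPM (SD, n = 3) under the JeKo-1 label and from 27.4 ± 2.55 to 20.9 ± 1.48 CPM in Granta-519. TPCN2 went from 19.6 ± 2.24 to 14.2 ± 1.03 CPM and from 30.2 ± 0.72 to 24.9 ± 0.77 CPM. In Granta-519, where CCND1 fell, 2 of its tested neighbours thus rose and 2 fell.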

How the data were processed

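Polyadenylated RNA of 12 libraries in 4 groups was used, with groups and replicate numbers from the labels. The authors deposited counts, in whole numbers, by gene symbol. STAR and the hg19 build are named, per the submitters' processing notes. Counting tool, annotation and strand: not given in the sources used here. The authors also deposited, as TPM, what is a length-scaled score: its columns sum to 81790 to 84121, and 6 unnamed columns hold no values. Counts were tested with edgeR 4.0.16 (R 4.3.3): filterByExpr, TMM, robust glmQLFit with 4 group means and 8 residual degrees of freedom, and glmQLFTest, with Benjamini-Hochberg adjustment over 15087 genes and a threshold of 0.05. The SE was back-calculated as the log2 change over the root of F; it and the 95% intervals are approximate. The score was used for levels between genes and, with limma 3.58.1 and pseudocounts of 0.01 and 0.1, as an alternative; DESeq2 1.42.0 was another. The chidamide test under the JeKo-1 label was checked on simulated counts, with few genes changed and the same spread for all genes. In it, 85.1% of 1.5-fold and 98.5% of 2-fold changes were called, and 5.97% of calls were false. This setting cannot check the scaling where most genes move. Members and lists were chosen with earlier results of these data known. All 10 members are named in every comparison; listed genes are named from those with the largest absolute changes, in each direction, among those called in at least 1 line. Genes alike were the 3 with the highest r. Depth limits CCND1 and CCND2 under the JeKo-1 label, and intervals there cover counting error only.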

Additional observations from a re-analysis of the deposited data

Results flagged for a closer look

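The chidamide effect differed between the lines for 6 genes, given as the log2 change under the JeKo-1 label minus that in Granta-519 and tested as a contrast in edgeR's quasi-likelihood fit. The differences were 3.11 for CCND1, -1.37 for CDK6, -0.44 for E2F1, 0.27 for RB1, 0.28 for RBL2 and 0.27 for E2F8. CCND1 and CDK6 moved in opposite directions in the lines, RB1, E2F1 and E2F8 moved the same way by different amounts, and RBL2 was called in Granta-519, with a value of -0.12 under the JeKo-1 label (edgeR adjusted p = 0.0608). The CCND1 value rests on 5 vehicle counts under the JeKo-1 label.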

How the results depend on the processing

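Of 829 member values recomputed under up to 21 alternatives, 771 kept their direction and side of the threshold, 22 lost the call, 15 gained it and 21 turned sign. The number of members called ranged from 6 to 10 under the JeKo-1 label, 9 to 10 in Granta-519, 5 to 7 for the difference and 9 to 10 for the lines in vehicle. Same-numbered libraries of a line did not deviate together (r from -0.026 to 0.035). This check cannot show whether such libraries were prepared together, and the main fit did not pair them. With the replicate number as a block 9, 9, 6 and 10 members were called. The turned values were all small except those of CCND2. Under the JeKo-1 label, RBL1 was 0.002 with upper-quartile scaling, and RBL2 was 0.013 with library-size scaling, 0.028 with upper-quartile scaling, and 0.018 and 0.017 on the score with pseudocounts of 0.01 and 0.1. In Granta-519, RBL1 was 0.058 with upper-quartile scaling and ran from -0.062 to 0.002 with 1 library left out, the latter without Granta-519 chidamide replicate 1. For the difference, library-size scaling gave 0.013 for CCND3, 0.081 for CDK4 and 0.030 for RBL1, no filter on low counts gave 0.036, 0.104 and 0.053, and the score gave 0.025 and 0.009, 0.090 and 0.091, and 0.039 and 0.038 with the 2 pseudocounts. The CCND2 difference, 2.59 and not called by edgeR, was -1.15 and -1.30 and called on the score (limma adjusted p = 0.00278 and 5.65e-06), where the pseudocount damps the 8 counts under the JeKo-1 label. The cause of the other turns was not tested. RBL1 in Granta-519 was called with no filter on low counts (-0.146). RBL2 in vehicle was no longer called with library-size scaling, no filter or the score. DESeq2 gave no adjusted p for CCND2 under the JeKo-1 label, and a fit of only the groups compared has no value for the difference. Depth limits CCND1 and CCND2 under the JeKo-1 label.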
